A study of Gallus gallus with 15 samples.

Results

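Breast muscle of 126-day-old Jingyuan hens was compared with breast muscle of 42-day-old hens, with 5 birds at each age, 10 of the 15 birds whose RNA was sequenced. The birds were chosen by their age labels alone. All hens were of the same breed, were fed and watered freely and were sampled under ether anaesthesia. The 126-day-old group had a labelled weight of 1.68 ± 0.14 kg and the 42-day-old group of 0.422 ± 0.03 kg. The comparison addresses how the muscle changes between rapid growth and slower growth. The remaining 5 birds were 180 days old and are used here only as values without a test. Some labels call the material a myoblast line or primary cells, while the description calls it breast muscle tissue. The genes described are those beyond the short list that the study tied to metabolites, 31 genes of which 6 passed the thresholds used here.

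The chicken breast muscle consists almost wholly of fast, glycolytic fibres. After hatching it grows by enlargement of existing fibres, to which satellite cells add nuclei by fusion, while the fibres mature their synapses, membranes and matrix. Fibre size follows from the balance of protein synthesis, driven by growth hormone and insulin-like growth factors, and of protein breakdown by the ubiquitin-proteasome system and autophagy.

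Expression was given as FPKM, fragments per length of transcript and mapped fragments in all, and entries that shared a gene name were summed. The sums per bird ran between 445023 and 478434 FPKM at 126 days and between 413638 and 469268 FPKM at 42 days. Read counts were not part of the file, so the depth is unknown. Across genes, the correlation of pairs of birds ran from 0.894 to 0.964 within 126 days, from 0.883 to 0.956 within 42 days and from 0.829 to 0.941 between the ages. Muscle markers were high in every bird: the 10 skeletal muscle fibre markers found, of 17 listed, together reached 23355 to 32702 FPKM at 126 days and 14323 to 35055 FPKM at 42 days.

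Among the 10 birds, 1 of each age stood apart. The 126-day bird 1 lay far from all others on the second principal component. This bird had 210 FPKM of OGN, a small proteoglycan of connective tissue, against 18.3 to 24.7 FPKM in the other 126-day birds, and 70.3 FPKM of ALB, the liver gene for albumin, against at most 3.64 FPKM. The 42-day bird 5 lay at the end of the first component. It had 1872 FPKM of TRIM63, a ubiquitin ligase that rises in muscle wasting, against 47.5 to 368 FPKM in the other 42-day birds. Its muscle fibre markers were the lowest of all 10 birds. Counts of calls are given without these birds for the lists in which they changed most. Of the 96 called genes described below, 13 lost the call without 126-day bird 1, 20 without 42-day bird 5 and 13 without both.

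With limma on log2(FPKM + 0.1), 11482 gene names with a mean of at least 0.5 FPKM were tested, and 283 of them (2.46%) passed both thresholds, which were 0.05 for the p adjusted by Benjamini-Hochberg and 1 for the size of the log2 fold change, 126 over 42 days. These genes are referred to as called. Of the tested genes 63 (0.549%) were higher and 220 (1.92%) lower at 126 days. In 237 of the 283 genes the FPKM of the ages did not overlap, which selection by p and fold on the same values favours. Over all tested genes 5.08% lay lower without overlap and 1.37% higher. The median log2 fold change of all tested genes was −0.15, and every list below is to be read against this shift. After quantile normalization the median was −0.01, and 116 genes were higher and 152 lower. The count depended on single birds. It was 85 without 126-day bird 2, 85 without 126-day bird 3, 159 without 126-day bird 4, 182 without 42-day bird 1, 77 without 42-day bird 2 and 144 without 42-day bird 4. Leaving out the birds that stood apart gave 375 calls without 126-day bird 1, 316 without 42-day bird 5, and 538 without both. In all 10 fits with 1 bird left out, 60 genes were called, 12 of them higher and 48 lower. For the genes below, the number of these 10 fits that called the gene is given where it was under 5.

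**Figure D1:**
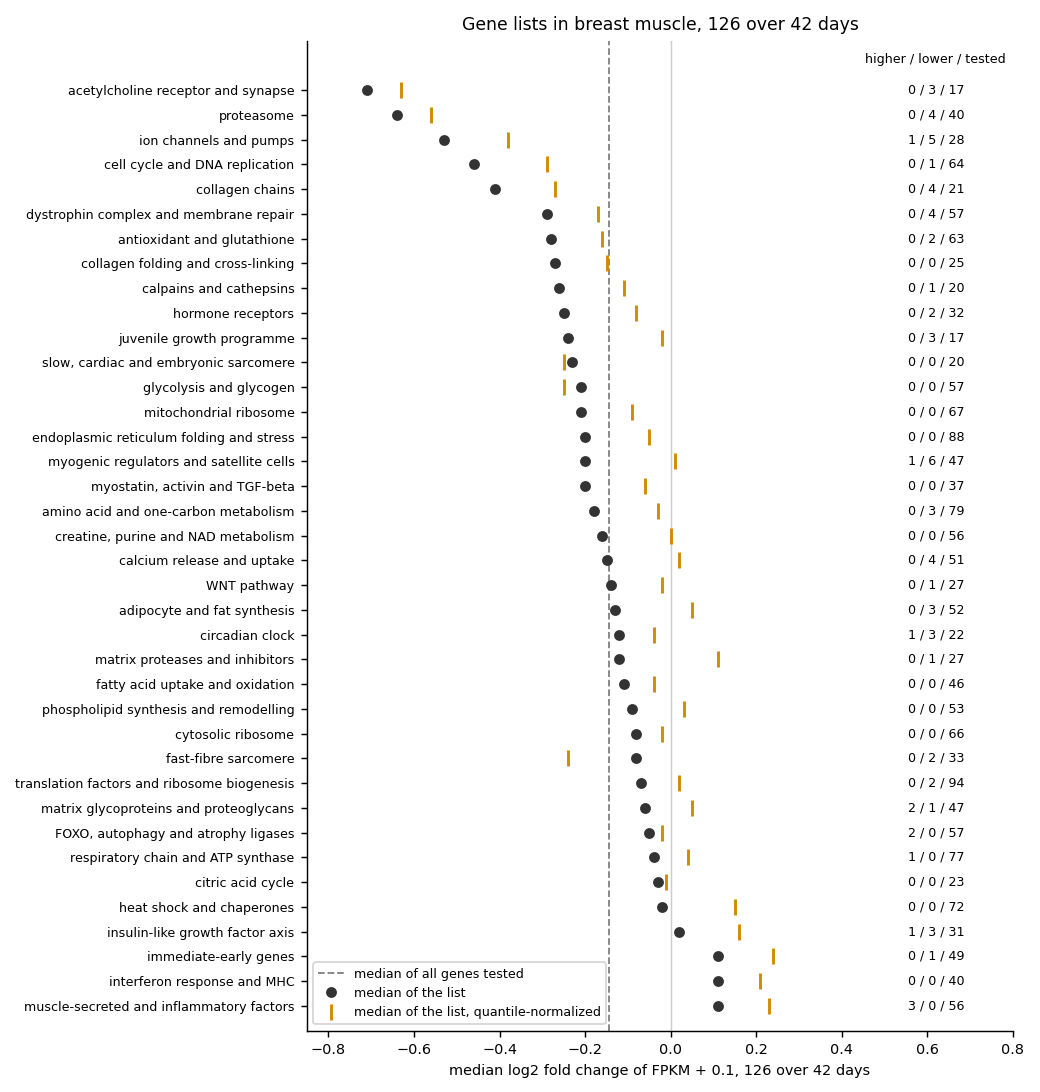
Median log2 fold change of FPKM + 0.1, 126 over 42 days, for 38 lists of genes by function (black points) and the same after quantile normalization (orange ticks), with the numbers called higher, called lower and tested at the right. The dashed line is the median of all 11482 genes tested (−0.15). The acetylcholine receptor and synapse list (−0.71) and the proteasome list (−0.64) have the lowest medians.

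The plot of the lists by function shows the acetylcholine receptor and synapse genes, the proteasome, the ion channels and the cell cycle genes at the lower end, with medians between −0.71 and −0.46. The lists of the metabolic enzymes and of the ribosome lay near the median of all genes. The accounts that follow start with the muscle fibre and its growth and end with the cells around it.

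Genes of myogenesis and of satellite cells were called more often lower than higher, as were all tested genes (220 lower, 63 higher). Of 47 tested, 6 fell and 1 rose (14.9% called, against 2.46% of all tested genes). Of the 47, 32 had negative log2 fold changes, where 63.4% of all tested genes did. The median log2 fold change was −0.20 (0.01 after quantile normalization), near the −0.15 of all genes. With only the highest entry of each name 1 member was called, lower. TMEM8C encodes myomaker, the membrane protein that lets myoblasts fuse with fibres. TMEM8C was listed at 0 in 126-day birds 1, 2, 4 and 5 and at 0.04 FPKM in bird 3, against 2.52, 0.72, 1.32, 0.54 and 0.67 FPKM in the 42-day birds. Its listed values were thus at or near 0 in every older bird and above 0 in every younger one. TMEM8C passed the filter of a mean of 0.5 FPKM only through the 42-day birds, and its values are low at an unknown depth. The log2 fold change was −3.34 ± 0.47 (SE), with an adjusted p of 0.00567 in limma.

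TEAD4 and TEAD1, transcription factors of the Hippo pathway that act in muscle development, fell as well. TEAD4 had 10.8, 11.1, 17.3, 18.1 and 9.32 FPKM at 126 days, against 34.8, 32.8, 29.1, 34.1 and 70.2 FPKM at 42 days. No older bird reached a younger one, and the highest value came from 42-day bird 5. The log2 fold changes were −1.56 ± 0.27 for TEAD4 (adjusted p = 0.0154, limma) and −1.12 ± 0.21 for TEAD1 (adjusted p = 0.0195). VGLL2, a muscle cofactor of the TEAD factors, was the member that rose. It averaged 131 ± 56.5 FPKM at 126 days and 32.3 ± 14.3 FPKM at 42 days (SD, n = 5 each), but the 40.97 FPKM of 126-day bird 1 lay within the range of the younger birds. VGLL2 was called in 4 of the 10 fits with 1 bird left out.

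FGFR4, a fibroblast growth factor receptor of the muscle lineage, averaged 9.23 ± 2.83 FPKM at 126 days and 18.4 ± 3.00 FPKM at 42 days (SD, n = 5 each). CDH15 is M-cadherin, an adhesion protein of satellite cells and myoblasts, and averaged 4.49 ± 1.86 FPKM at 126 days and 15.8 ± 11.5 FPKM at 42 days. EYA1, a transcriptional cofactor in myogenesis, averaged 2.08 ± 0.71 FPKM at 126 days and 5.20 ± 1.69 FPKM at 42 days. All of them were called lower, though in only 2, 3 and 2 of the 10 fits. With only its highest entry EYA1 had a log2 fold change of −0.39 and was not called (adjusted p = 0.732, limma). MYOG, the factor of terminal differentiation, had 0.39 to 3.06 FPKM at 126 days and 1.76 to 10.1 FPKM at 42 days and was not called (adjusted p = 0.0603, limma). It was called lower without 42-day bird 5. The satellite cell factor PAX7 averaged 3.22 ± 1.01 FPKM at 126 days and 4.69 ± 1.33 FPKM at 42 days (adjusted p = 0.28, limma). MYOD1 went the other way, with 214 ± 208 FPKM at 126 days and 123 ± 53.1 FPKM at 42 days, and was not called (adjusted p = 0.65, limma). MEF2A (log2 fold change −0.59, adjusted p = 0.0348, limma) passed the adjusted p but not the fold. MEF2C (−0.41, adjusted p = 0.301, limma) was not called.

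**Figure D2:**
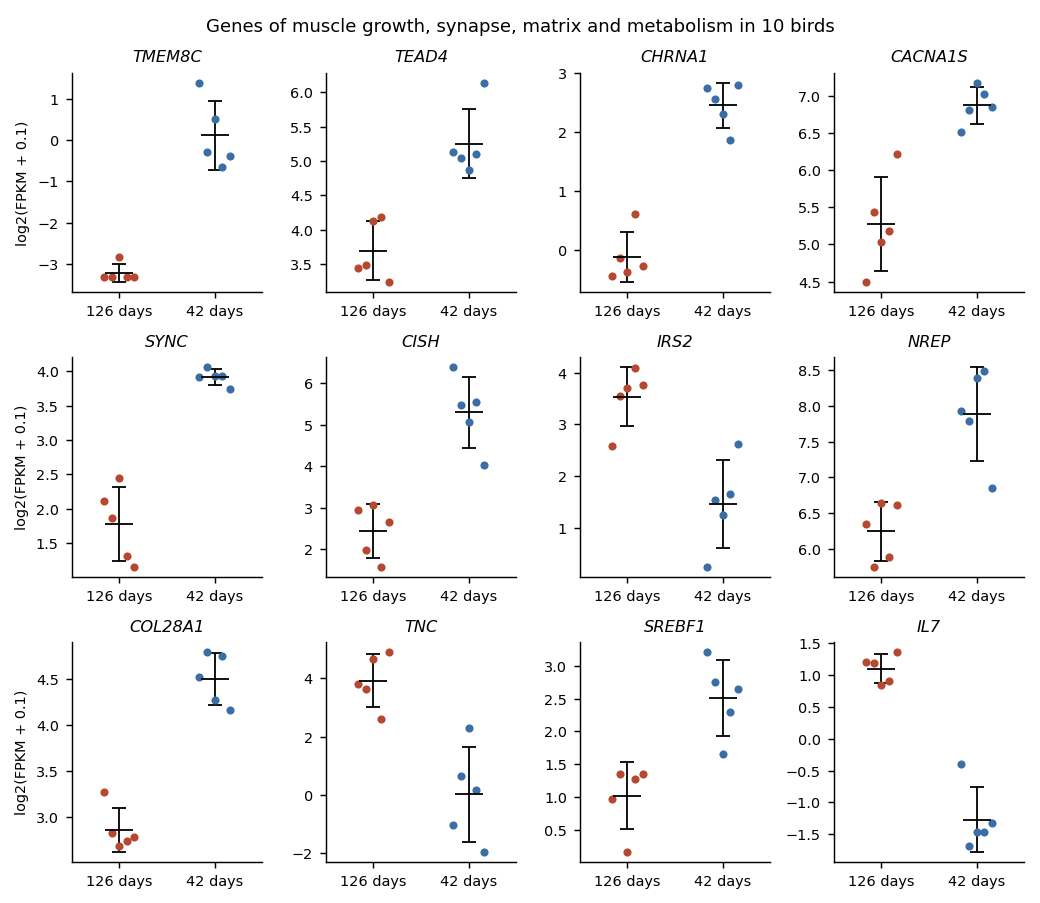
log2(FPKM + 0.1) of 12 called genes in each bird (points), with the mean and SD of the 5 birds of an age (bars), 126 days at the left and 42 days at the right of each panel. In 11 of the panels no bird of one age reaches the other age, and in IRS2 the lowest 126-day bird (5.91 FPKM) lies just below the highest 42-day bird (6.05 FPKM).

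Genes of the neuromuscular synapse lay low at 126 days. The list had a median log2 fold change of −0.71 (−0.63 after quantile normalization), and 13 of 17 tested members had negative values. Of the 17, 3 were called, all lower (17.6%, against 2.46% of all tested genes). CHRNA1 is the alpha subunit of the muscle acetylcholine receptor, which binds the transmitter. It had 0.63, 0.81, 0.67, 1.43 and 0.73 FPKM at 126 days, against 6.60, 5.76, 4.81, 3.52 and 6.85 FPKM at 42 days. All older birds lay below all younger birds, and the log2 fold change of −2.57 ± 0.27 (adjusted p = 0.0023, limma) was called in all 10 fits with 1 bird left out. With only its highest entry CHRNA1 had a log2 fold change of −3.81 and was not called (adjusted p = 0.0516, limma). With only the highest entry of each name none of the 14 synapse genes then tested was called.

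CHRND, the delta subunit of the same receptor, had 2.51, 3.78, 3.15, 4.99 and 4.54 FPKM at 126 days, against 12.5, 21.9, 39.4, 13.1 and 7.06 FPKM at 42 days. The log2 fold change was −2.07 ± 0.39 (adjusted p = 0.0201, limma). NRG1, a growth factor that nerve and muscle use to maintain the synapse, averaged 0.22 ± 0.09 FPKM at 126 days and 1.28 ± 0.62 FPKM at 42 days (SD, n = 5 each). It was called lower, with an overlap through the 0.31 FPKM of 42-day bird 1 and in 2 of the 10 fits. NRG1 passed the filter of a mean of 0.5 FPKM only through the 42-day birds. RAPSN, which clusters the receptor, was not called (adjusted p = 0.186, limma). Markers of Schwann cells and nerve, 14 found of 19, summed to 39.1 to 49.7 FPKM at 126 days and 32.2 to 90.8 FPKM at 42 days. In whole tissue, fewer cells of a type and less RNA per cell cannot be told apart, and the part of nerve tissue in these values was not tested.

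Of 28 ion channel, pump and water channel genes 5 fell and 1 rose (21.4% called, against 2.46% of all tested genes). The median was −0.53 (−0.38 after quantile normalization), and 21 of the 28 were negative, where 63.4% of all tested genes were. With only the highest entry of each name 1 of 27 was called, lower. The sodium pump gene ATP1B1 averaged 104 ± 39.9 FPKM at 126 days and 51.4 ± 13.2 FPKM at 42 days and was not called (adjusted p = 0.0755, limma). AQP4, the water channel of fast fibres, had 1.95, 0.60, 0.99, 0.92 and 0.45 FPKM at 126 days, against 12.1, 8.88, 3.91, 2.98 and 6.62 FPKM at 42 days. The ages did not overlap (log2 fold change −2.67 ± 0.43, adjusted p = 0.0111, limma). SCN2B, an auxiliary subunit of the sodium channel, averaged 3.77 ± 1.43 FPKM at 126 days and 17.8 ± 10.3 FPKM at 42 days (SD, n = 5 each). KCNJ11 is the pore of the ATP-sensitive potassium channel and averaged 5.08 ± 1.6 FPKM at 126 days and 11.1 ± 1.78 FPKM at 42 days. KCNN1, a calcium-activated potassium channel, and FXYD6, a regulator of the sodium pump, also fell, each in 3 of the 10 fits. KCNQ5, a voltage-gated potassium channel, was the member that rose, to 4.58 ± 1.5 FPKM at 126 days, against 2.05 ± 0.54 FPKM at 42 days, in 1 of the 10 fits.

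Excitation reaches the contractile apparatus through the dihydropyridine receptor, the voltage sensor of the T-tubule that opens the calcium store. Its pore subunit CACNA1S had 22.4, 43.2, 32.7, 36.1 and 74.6 FPKM at 126 days, against 91.6, 112, 145, 130 and 116 FPKM at 42 days. Its beta subunit CACNB1 had 10.7, 14.7, 13.2, 19.6 and 20.6 FPKM at 126 days, against 40.9, 50.9, 35.6, 47.1 and 34.2 FPKM at 42 days. Both subunits fell without overlap, by log2 fold changes of −1.61 ± 0.27 (adjusted p = 0.0144, limma) and −1.43 ± 0.21 (adjusted p = 0.00657), and both were called in all 10 fits. With only the highest entry CACNA1S had a log2 fold change of −1.03 and was not called (adjusted p = 0.38, limma). The calcium-dependent kinases CAMK1 and CAMK2B completed the 4 members that fell of 51 tested, CAMK1 in 3 of the 10 fits. These 4 were 7.84% of the list, against 2.46% called of all tested genes. The store protein CASQ2 averaged 597 ± 79.6 FPKM at 126 days and 973 ± 255 FPKM at 42 days (SD, n = 5 each) and was not called (adjusted p = 0.119, limma). The median of the list was −0.15, that of all genes, and 0.02 after quantile normalization.

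Among genes of the contractile proteins 2 were called with all birds, both of the fast sarcomere. Of its 33 genes tested these 2 fell (6.06%, against 2.46% called of all tested genes). Of 20 genes of slow, cardiac and embryonic isoforms none was called, while 8 had an unadjusted p under 0.05, all of them lower. Over all tested genes 14.1% had an unadjusted p under 0.05 in the lower direction and 5.55% in the higher. Of the 20 slow, cardiac and embryonic genes 3 were called lower without 126-day bird 1, 2 without 42-day bird 5 and 6 without both, and none of the fast sarcomere genes was called after quantile normalization. The most abundant sarcomere gene, TPM1, averaged 13521 ± 1655 FPKM at 126 days and 11667 ± 3106 FPKM at 42 days (SD, n = 5 each). TPM2, the beta-tropomyosin, was called lower with 29.5, 12.9, 11.98, 9.94 and 34.1 FPKM at 126 days, against 77.7, 177, 251, 231 and 19.3 FPKM at 42 days. The 42-day bird 5 lay among the older birds, and TPM2 was called in 2 of the 10 fits (log2 fold change −2.65 ± 0.64, adjusted p = 0.0455, limma). TMOD1, which caps thin filaments, was called lower in 1 of the 10 fits.

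Proteins that tie the contractile apparatus to the membrane were the other structural group with calls. Of 57 tested, 4 fell (7.02%, against 2.46% called of all tested genes) and none rose. An unadjusted p under 0.05 in limma was found for 17 in the lower direction and none in the higher. Over all tested genes these shares were 14.1% and 5.55%. After quantile normalization 2 were called lower, and with only the highest entry of each name likewise 2. The median was −0.29 (−0.17 after quantile normalization). SYNC encodes syncoilin, an intermediate filament protein that binds the dystrophin complex. It had 4.24, 3.55, 5.33, 2.39 and 2.12 FPKM at 126 days, against 15.0, 16.5, 15.1, 15.2 and 13.3 FPKM at 42 days. The younger birds lay close together and far above the older ones (log2 fold change −2.14 ± 0.24, adjusted p = 0.00245, limma). PARVB, an actin-binding partner of integrin-linked kinase, had 4.64 to 10 FPKM at 126 days and 13.4 to 31.9 FPKM at 42 days. TLN2, the muscle talin, and CAV3, the caveolin of muscle membranes, fell with overlapping values, in 4 and 1 of the 10 fits. SPTB, a beta-spectrin of the membrane skeleton that was listed here as an erythrocyte marker, had 13.3 to 23.6 FPKM at 126 days and 31.5 to 53.2 FPKM at 42 days and was called lower in all 10 fits. The other erythrocyte markers tested were not called.

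Of the growth hormone and insulin-like growth factor axis, 3 of 31 genes fell and 1 rose (12.9% called, against 2.46% of all tested genes). The median was 0.02 (0.16 after quantile normalization). CISH is a feedback inhibitor of cytokine receptors that growth hormone induces through STAT5. CISH had 7.63, 3.80, 8.20, 2.85 and 6.13 FPKM at 126 days, against 83.5, 44.6, 33.3, 46.9 and 16.1 FPKM at 42 days. The ages did not overlap, although 42-day bird 5 came nearest to the older birds (log2 fold change −2.87 ± 0.41, adjusted p = 0.00601, limma, called in all 10 fits). EIF4EBP1, the repressor of cap-dependent translation that mTOR inactivates, averaged 36.1 ± 9.63 FPKM at 126 days and 109 ± 35.5 FPKM at 42 days (SD, n = 5 each). IGFBP3, a carrier of insulin-like growth factors, averaged 9.28 ± 2.1 FPKM at 126 days and 22.3 ± 8.46 FPKM at 42 days.

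IRS2, a docking protein of the insulin receptor, rose. It had 5.91, 11.6, 12.8, 16.8 and 13.5 FPKM at 126 days, against 1.08, 2.79, 2.27, 3.04 and 6.05 FPKM at 42 days, with an overlap of 126-day bird 1 and 42-day bird 5 (log2 fold change 2.08 ± 0.40, adjusted p = 0.021, limma). With only the highest entry of the name the log2 fold change of IRS2 was 0.27 (adjusted p = 0.95). FOXO1, a transcription factor that insulin signalling keeps out of the nucleus, rose to 14.9 ± 5.71 FPKM at 126 days, against 4.93 ± 3.05 FPKM at 42 days (SD, n = 5 each). FOXO1 was called in 2 of the 10 fits. The growth hormone receptor GHR averaged 75.8 ± 15.8 FPKM at 126 days and 52.1 ± 16.9 FPKM at 42 days and was not called (adjusted p = 0.255, limma). None of 37 genes of the myostatin, activin and TGF-beta families was called, and at an unadjusted p under 0.05 6 were lower and 2 higher. Without 126-day bird 1, 3 of them were called lower, without 42-day bird 5 1 was called higher, and without both 4 were lower and 1 higher. MSTN, the inhibitor of muscle growth, averaged 19.6 ± 7.73 FPKM at 126 days and 29.9 ± 21.8 FPKM at 42 days (adjusted p = 0.881, limma).

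In rodents a set of growth-promoting genes declines in several organs as juvenile growth slows. Of 17 tested members of this set 3 fell and none rose (17.6% called, against 2.46% of all tested genes). The list median was −0.24 (−0.02 after quantile normalization), against −0.15 for all genes, and 5 of the 17 were positive. With only the highest entry of each name none of the 17 was called. NREP, a small protein of growing and regenerating tissue, had 81.2, 53.5, 99.5, 59.1 and 97.7 FPKM at 126 days, against 242, 222, 334, 358 and 115 FPKM at 42 days. The lowest of the younger birds was 42-day bird 5, and the ages did not overlap (log2 fold change −1.64 ± 0.30, adjusted p = 0.0195, limma). HMGA1, a chromatin protein of growing cells, averaged 3.68 ± 0.80 FPKM at 126 days and 7.79 ± 1.80 FPKM at 42 days (SD, n = 5 each), in 4 of the 10 fits. IGF2BP3, an RNA-binding protein of embryonic growth, averaged 0.79 ± 0.26 FPKM at 126 days and 2.84 ± 1.32 FPKM at 42 days. With only its highest entry IGF2BP3 had a log2 fold change of −0.72 and was not called (adjusted p = 0.722, limma).

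Among 64 tested genes of the cell cycle and DNA replication, 1 was called (1.56%, against 2.46% of all tested genes). Negative log2 fold changes were found for 54, where 63.4% of all tested genes had them, and the median was −0.46 (−0.29 after quantile normalization). The called gene was KIF23, a kinesin needed to divide the cell at the end of mitosis, with 0.31 ± 0.12 FPKM at 126 days and 1.08 ± 0.28 FPKM at 42 days (SD, n = 5 each). KIF23 was called in 1 of the 10 fits and passed the filter of a mean of 0.5 FPKM only through the 42-day birds. Of the list, 16 genes had an unadjusted p under 0.05 in the lower direction, against 14.1% of all genes. Without both birds that stood apart, 8 of these genes were called, all lower. Among nuclear receptors, THRA, the thyroid hormone receptor alpha, fell. THRA had 14.2, 12.02, 11.2, 13.9 and 14.9 FPKM at 126 days, against 32.5, 43.8, 23.9, 26.8 and 26.4 FPKM at 42 days. The older birds varied little and lay below every younger bird (log2 fold change −1.18 ± 0.19, adjusted p = 0.0106, limma, called in all 10 fits). RXRA, the partner of thyroid and other nuclear receptors, averaged 28.3 ± 7.06 FPKM at 126 days and 57.9 ± 12.9 FPKM at 42 days and was called lower in 4 of the 10 fits. The other 30 hormone receptor genes tested were not called, so that 6.25% of this list was called.

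Proteasome genes lay low at 126 days almost throughout. Of 40 tested subunits, activators and assembly factors 4 fell and none rose, 36 had negative log2 fold changes, and the median was −0.64 (−0.56 after quantile normalization). An unadjusted p under 0.05 in the lower direction was found for 25 of the 40, and in 15 every 126-day bird lay below every 42-day bird. Among all tested genes 63.4% had negative log2 fold changes and 2.46% were called. An unadjusted p under 0.05 in the lower direction was found for 14.1% of all tested genes, and 5.08% lay lower without overlap. PSMA5, an alpha subunit of the catalytic core, had 14.1, 17.2, 23.1, 26.8 and 21.3 FPKM at 126 days, against 53.5, 148, 43.9, 60.8 and 115 FPKM at 42 days. The lowest younger bird stood well above the highest older bird (log2 fold change −1.91 ± 0.32, adjusted p = 0.0144, limma, called in all 10 fits). PSMD1, PSMD13 and PSMD11, subunits of the regulatory cap that takes in ubiquitylated proteins, fell by log2 fold changes between −1.24 and −1.17, in 5, 3 and 2 of the 10 fits. PSMD4, a ubiquitin receptor of the cap, averaged 114 ± 15.9 FPKM at 126 days and 213 ± 71.1 FPKM at 42 days (SD, n = 5 each) and was not called (adjusted p = 0.0648, limma).

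The summed FPKM of the 40 genes was 1690, 1900, 1635, 2225 and 1823 at 126 days, against 2289, 3418, 2201, 2653 and 5171 at 42 days. The highest older bird lay just above the lowest younger one. The 42-day bird 5 held the highest value of the 10 birds for 36 of the 40 genes. Without this bird the median was −0.44, 34 of the 40 genes were negative, 18 had an unadjusted p under 0.05 in the lower direction, and 2 were called lower. Without both birds that stood apart the median was −0.39, with 1 gene called lower and 1 higher.

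**Figure D3:**
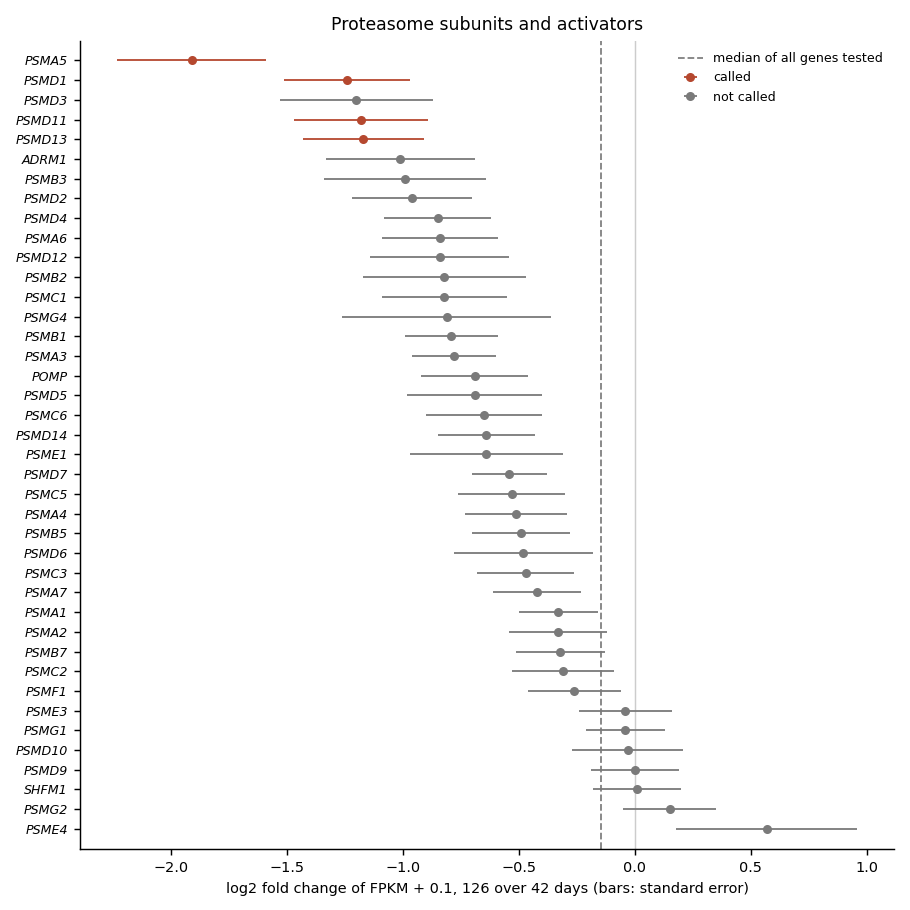
log2 fold change of FPKM + 0.1, 126 over 42 days, with its standard error, for the 40 tested proteasome genes, in order of the fold change. The dashed line is the median of all genes tested. PSMA5 has the lowest value (−1.91) and PSME4 the highest (0.57), and 36 of the genes lie below 0.

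Outside the proteasome, 2 genes of protein breakdown rose. Of 57 genes of FOXO factors, ligases and autophagy these were FOXO1 and ASB2 (3.51% called, against 2.46% of all tested genes). With all birds none of the 57 was called lower. Without 126-day bird 1 or without 42-day bird 5, 2 were called higher and 1 lower. Without both birds 5 were called higher and 2 lower. ASB2 is a subunit of a ubiquitin ligase that degrades filamin B in muscle cells. ASB2 had 414, 456, 205, 494 and 401 FPKM at 126 days, against 7.92, 23.2, 12.6, 37.2 and 326 FPKM at 42 days. Only 42-day bird 5 reached the older birds. With all birds the log2 fold change was 3.60 ± 0.78 (adjusted p = 0.0302, limma), and ASB2 was called in 2 of the 10 fits. FAM181A and UBB, chosen after their values were seen, had the same distribution over the birds. FAM181A had 123, 125, 66.4, 132 and 102 FPKM at 126 days, against 3.33, 5.59, 2.50, 7.62 and 88.0 FPKM at 42 days. UBB, a polyubiquitin gene, had 4107, 4082, 3880, 5919 and 3077 FPKM at 126 days, against 722, 608, 636, 832 and 4097 FPKM at 42 days. FAM181A was called in 4 and UBB in 2 of the 10 fits. The reads of UBB may be shared with other ubiquitin genes of near-identical repeats. TRIM63 averaged 487 ± 294 FPKM at 126 days and 485 ± 787 FPKM at 42 days (SD, n = 5 each) and was not called (adjusted p = 0.451, limma). The lysosomal protease CTSD was the only called member of 20 calpains and cathepsins (5.0%). CTSD was lower in the complete set and in 1 of the 10 fits.

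**Figure D4:**
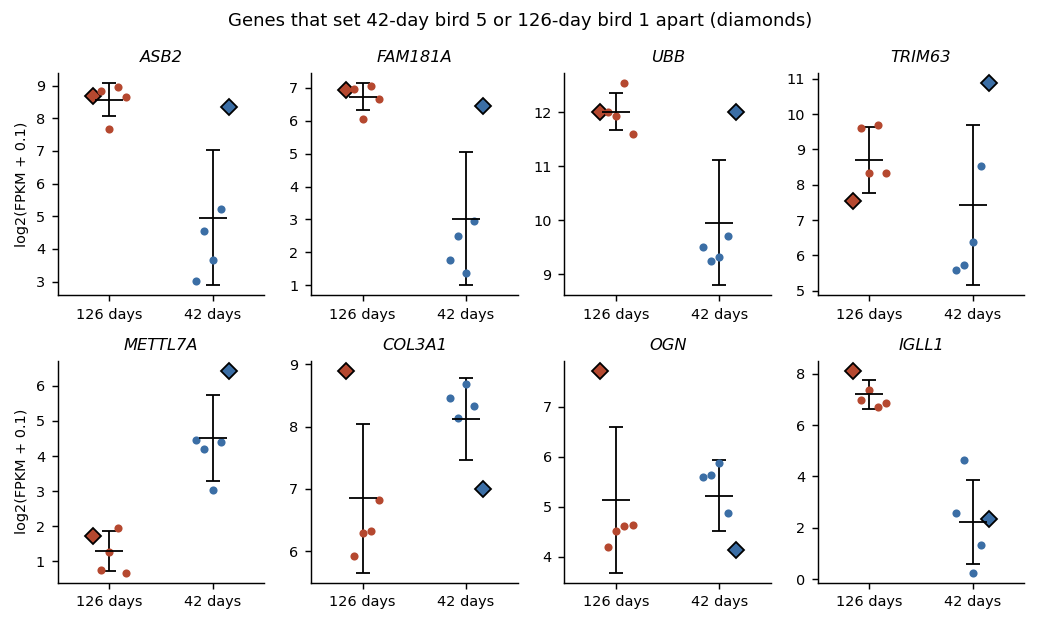
log2(FPKM + 0.1) of 8 genes in each bird, 126 days at the left and 42 days at the right of each panel, with the mean and SD of 5 birds. The diamonds are 126-day bird 1 and 42-day bird 5. For ASB2, FAM181A and UBB the 42-day diamond lies with the 126-day birds, and for COL3A1 and OGN the 126-day diamond lies above all other birds of its age.

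Collagens were the part of the matrix with most calls. Of 21 collagen chains 4 fell and none rose (19.0% called, against 2.46% of all tested genes). Of the 21, 16 were negative, where 63.4% of all tested genes were, and the median was −0.41 (−0.27 after quantile normalization). COL28A1, a collagen found around peripheral nerve and in other basement membranes in mice, had 9.56, 6.96, 6.28, 6.53 and 6.77 FPKM at 126 days, against 23.0, 27.7, 19.2, 26.9 and 17.9 FPKM at 42 days. The ages lay far apart, and the log2 fold change of −1.65 ± 0.19 (adjusted p = 0.00245, limma) was called in all 10 fits. COL20A1 and COL16A1, which associate with collagen fibrils, averaged 0.19 ± 0.10 and 0.56 ± 0.29 FPKM at 126 days, against 2.14 ± 1.29 and 2.21 ± 0.49 FPKM at 42 days (SD, n = 5 each). COL20A1 passed the filter of a mean of 0.5 FPKM only through the 42-day birds. COL4A6, a basement membrane chain, was called lower in 3 of the 10 fits. With only the highest entry of each name COL4A6 had a log2 fold change of −0.03 and COL20A1 of −1.54, neither called, and 1 collagen chain was called.

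The main fibrillar chains were not called. COL1A1 had 28.5, 5.41, 11.3, 8.50 and 21.1 FPKM at 126 days, against 52.5, 48.7, 55.0, 30.5 and 16.7 FPKM at 42 days (adjusted p = 0.0858, limma). COL3A1 had 477, 60.1, 77.8, 79.4 and 112 FPKM at 126 days, against 352, 282, 409, 321 and 128 FPKM at 42 days (adjusted p = 0.191, limma). In both genes 126-day bird 1 was the highest older bird and 42-day bird 5 the lowest younger bird. Without 126-day bird 1 both genes were called lower, and the list then held 7 called genes. Without both birds it held 10, all lower. The fibroblast markers, 25 found of 26, summed to 1568 FPKM in 126-day bird 1 and to 251 to 416 FPKM in the other older birds, against 261 to 783 FPKM at 42 days. The part of connective tissue in the samples was not tested.

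Among 47 other matrix proteins 2 rose and 1 fell (6.38% called, against 2.46% of all tested genes). Without both birds that stood apart the list, then of 48 genes, held 2 called higher and 10 called lower, and the list of matrix proteases and their inhibitors 5 called lower in place of 1. TNC is tenascin-C, a matrix protein that appears where tissue is loaded or remodelled. It had 13.8, 12.3, 25.4, 5.98 and 29.7 FPKM at 126 days, against 0.39, 1.47, 4.79, 1.02 and 0.16 FPKM at 42 days. The ages did not overlap (log2 fold change 3.89 ± 0.69, adjusted p = 0.0168, limma), and the call was lost in 1 of the 10 fits. THBS1, thrombospondin 1, rose to 16.1 ± 5.39 FPKM at 126 days, against 5.09 ± 1.78 FPKM at 42 days (SD, n = 5 each), likewise without overlap. ELN, the elastin gene, fell to 3.16 ± 1.19 FPKM at 126 days, against 11.7 ± 5.65 FPKM at 42 days. ADAMTSL2, a matrix protein related to the ADAMTS proteases, fell to 7.04 ± 5.20 FPKM at 126 days, against 26.2 ± 10.6 FPKM at 42 days, in 4 of the 10 fits. WNT9A was the only called gene of 27 in the WNT pathway (3.7%), lower at 126 days. The smooth muscle markers MCAM and SMTN were called lower, in 1 and 2 of the 10 fits, and the 16 smooth muscle and pericyte markers found summed to 151 to 229 FPKM at 126 days and 248 to 301 FPKM at 42 days.

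Clock genes moved in opposite directions. The circadian clock rests on ARNTL with CLOCK as activators, on PER and CRY proteins as their repressors, and on NR1D1 and NR1D2, which repress ARNTL. Of 22 tested clock genes 3 fell and 1 rose (18.2% called, against 2.46% of all tested genes). NR1D1 had 0.69, 1.24, 1.27, 1.48 and 1.22 FPKM at 126 days, against 16.4, 19.1, 3.35, 8.37 and 5.57 FPKM at 42 days. Every older bird lay below every younger one (log2 fold change −2.82 ± 0.43, adjusted p = 0.00921, limma, called in all 10 fits). NR1D2 averaged 18.7 ± 3.99 FPKM at 126 days and 59.1 ± 20.5 FPKM at 42 days (SD, n = 5 each), and PER3 averaged 1.45 ± 0.26 FPKM at 126 days and 8.68 ± 4.91 FPKM at 42 days.

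ARNTL rose. It had 15.3, 20.1, 24.4, 11.8 and 14.0 FPKM at 126 days, against 3.56, 1.83, 3.07, 3.29 and 11.1 FPKM at 42 days, again with 42-day bird 5 nearest to the older birds (log2 fold change 2.11 ± 0.39, adjusted p = 0.0195, limma). CRY1 passed the adjusted p but not the fold, with 80.4 ± 15.9 FPKM at 126 days and 44.1 ± 4.67 FPKM at 42 days (adjusted p = 0.0218, limma). TEF, an output factor of the clock, averaged 15.1 ± 2.84 FPKM at 126 days and 29.7 ± 8.06 FPKM at 42 days (log2 fold change −0.96, adjusted p = 0.0353). Without 42-day bird 5 the list held 3 genes called higher and 4 called lower. NR1D2 and ARNTL are split over several entries, and with only the highest entry of each name neither was called, with log2 fold changes of 0.06 and −0.37. The hour at which the birds were killed is not given in the sources used here.

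**Figure D5:**
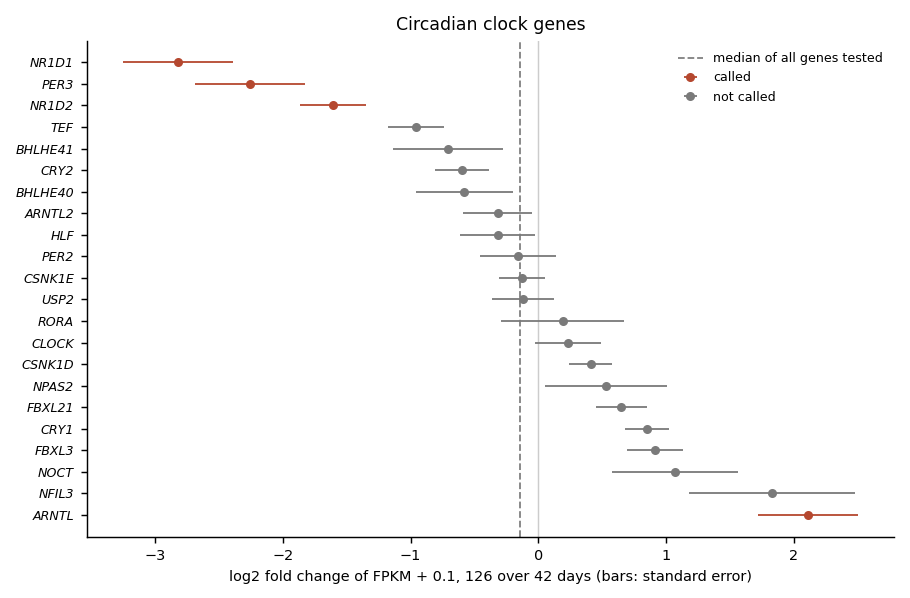
log2 fold change of FPKM + 0.1, 126 over 42 days, with its standard error, for the 22 tested clock genes. The called genes are in red: NR1D1 (−2.82), PER3 (−2.26) and NR1D2 (−1.61) at the lower end and ARNTL (2.11) at the higher end. The dashed line is the median of all genes tested.

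In energy metabolism few enzymes were called. None of 57 genes of glycolysis and glycogen, 23 of the citric acid cycle, 46 of fatty acid oxidation, 53 of phospholipid metabolism and 56 of creatine, purine and NAD metabolism passed both thresholds, with medians between −0.21 and −0.03 (−0.25 to 0.03 after quantile normalization). At an unadjusted p under 0.05 in limma, 7 glycolysis, 2 citric acid cycle, 7 fatty acid oxidation, 6 phospholipid and 8 creatine, purine and NAD genes were lower, and 2, 1, 3, 1 and 5 genes of these lists were higher. GAPDH, the most abundant glycolytic gene, had 18082, 30875, 24621, 23844 and 26327 FPKM at 126 days, against 43346, 38165, 34421, 37027 and 52637 FPKM at 42 days. The ages did not overlap, but the fold was under the threshold and the adjusted p was 0.143 (limma). Of 77 genes of the respiratory chain and ATP synthase 1 rose (1.3% called, against 2.46% of all tested genes). This gene was ND2 of the mitochondrial genome, a subunit of complex I, with 7860, 5181, 4940, 3955 and 2714 FPKM at 126 days, against 2207, 1548, 1957, 2165 and 1126 FPKM at 42 days (log2 fold change 1.41 ± 0.30, adjusted p = 0.0283, limma). All 13 protein genes of the mitochondrial genome had positive log2 fold changes, with a median of 0.59 (0.19 after quantile normalization).

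Fat synthesis held 3 of the falls, of 52 genes tested (5.77% called, against 2.46% of all tested genes). SREBF1, the transcription factor that drives the enzymes of fatty acid synthesis, had 1.85, 2.44, 1.02, 2.33 and 2.45 FPKM at 126 days, against 9.15, 6.62, 3.05, 4.80 and 6.16 FPKM at 42 days. The ages did not overlap (log2 fold change −1.49 ± 0.32, adjusted p = 0.0297, limma, 4 of the 10 fits). INSIG1, which holds SREBP proteins in the endoplasmic reticulum, averaged 1.81 ± 1.32 FPKM at 126 days and 8.56 ± 6.14 FPKM at 42 days (SD, n = 5 each). ACACA, the acetyl-CoA carboxylase of the first step of fatty acid synthesis, averaged 2.44 ± 0.66 FPKM at 126 days and 5.12 ± 1.41 FPKM at 42 days. INSIG1 and ACACA were each called in 2 of the 10 fits, and with the highest entry alone ACACA had a log2 fold change of 3.20 and was not called. None of the 6 adipocyte markers tested was called in limma, with 2 lower and 1 higher at an unadjusted p under 0.05. Log2 fold changes were negative for 3 of the 6 and positive for 3. The adipocyte markers found summed to 106 to 140 FPKM at 126 days and 144 to 288 FPKM at 42 days. Much of these sums came from PNPLA2, with 79.5 ± 17.9 FPKM at 126 days and 131 ± 67.0 FPKM at 42 days (SD, n = 5 each). PNPLA2 was not called (adjusted p = 0.246, limma).

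Of 79 genes of amino acid and one-carbon metabolism 3 fell (3.8% called, against 2.46% of all tested genes). Without both birds that stood apart 7 were called lower and 1 higher. SARDH, which oxidises sarcosine to glycine in mitochondria, averaged 0.62 ± 0.33 FPKM at 126 days and 2.90 ± 1.13 FPKM at 42 days (SD, n = 5 each) and was called in all 10 fits. PPM1K, the phosphatase that activates the breakdown of branched-chain amino acids, averaged 3.14 ± 1.32 FPKM at 126 days and 11.9 ± 4.32 FPKM at 42 days. AHCY, which clears S-adenosylhomocysteine, averaged 19.2 ± 4.28 FPKM at 126 days and 41.3 ± 13.2 FPKM at 42 days, in 3 of the 10 fits. Of 63 antioxidant and glutathione genes the transferases GSTA4 and GSTT1 fell (3.17% called), GSTT1 in 3 of the 10 fits. GSTA4 averaged 1.71 ± 0.63 FPKM at 126 days and 7.23 ± 2.96 FPKM at 42 days.

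The machinery of protein synthesis showed few calls. None of 66 genes of the cytosolic ribosome was called in limma, none of them had an unadjusted p under 0.05, and their median was −0.08. Their summed FPKM was 6421 ± 1591 at 126 days and 6855 ± 1159 at 42 days (SD, n = 5 each). None of 67 genes of the mitochondrial ribosome was called, with 10 at an unadjusted p under 0.05, all lower. Of 94 translation factors and ribosome assembly genes EIF4EBP1 and UBTF fell (2.13% called, against 2.46% of all tested genes). UBTF, which activates transcription of ribosomal RNA, averaged 17.2 ± 3.08 FPKM at 126 days and 34.8 ± 8.37 FPKM at 42 days, in 3 of the 10 fits. With all birds none of 72 heat shock genes and none of 88 genes of the endoplasmic reticulum was called in limma. Of the heat shock genes 10 had an unadjusted p under 0.05 in the higher and 8 in the lower direction, and of the endoplasmic reticulum genes 6 in the higher and 15 in the lower. Without 126-day bird 1, 3 heat shock genes and 1 endoplasmic reticulum gene were called higher, and without both birds 2 and 1. With the replicate number as a block 6 heat shock genes were called higher.

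Some genes of lymphocytes and of their signals rose, among them 2 of 6 B cell and 2 of 11 T cell markers tested. These shares were 33.3% and 18.2%, against 2.46% called of all tested genes. IGLL1 is annotated as an immunoglobulin light chain gene and JCHAIN joins secreted immunoglobulin into polymers. IGLL1 had 279, 127, 166, 104 and 115 FPKM at 126 days, against 5.88, 25.1, 1.09, 2.43 and 4.97 FPKM at 42 days. All older birds lay far above all younger ones (log2 fold change 4.97 ± 0.64, adjusted p = 0.00415, limma, called in all 10 fits). JCHAIN had 56.8, 20.5, 34.4, 26.1 and 25.3 FPKM at 126 days, against 1.32, 7.93, 0.44, 0.63 and 12.6 FPKM at 42 days. Immunoglobulin genes exist in near-identical copies, so the share of reads given to IGLL1 is uncertain.

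IL7, a growth factor of lymphocytes that stromal cells and muscle can make, had 2.22, 2.19, 1.69, 1.77 and 2.47 FPKM at 126 days, against 0.66, 0.21, 0.26, 0.26 and 0.30 FPKM at 42 days. The older birds lay close together and above all younger birds (log2 fold change 2.37 ± 0.31, adjusted p = 0.00415, limma, called in all 10 fits). IL7 is split over several entries, and with only the highest entry the log2 fold change was 0.61 and the gene was not called (adjusted p = 0.796). The chemokine CCL4 averaged 8.16 ± 5.02 FPKM at 126 days and 0.59 ± 0.53 FPKM at 42 days (SD, n = 5 each). The chemokine CCL21 rose in 1 of the 10 fits. IL7, CCL4 and CCL21 were the called members of 56 muscle-secreted and inflammatory factors tested (5.36%, against 2.46% of all tested genes). The median of that list was 0.11. Without both birds that stood apart the median was −0.17, with 3 called higher and 3 called lower. S100A12, a calcium-binding protein of granulocytes in mammals, averaged 3.99 ± 2.98 FPKM at 126 days and 0.34 ± 0.22 FPKM at 42 days and was called in all 10 fits. IL7, CCL21 and S100A12 averaged under 0.5 FPKM at 42 days, so they passed the filter only through their 126-day values.

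Of 11 T cell markers tested LCK and CD8A rose, with a list median of 1.55, and 8 were higher at an unadjusted p under 0.05. Only these 11 of the 25 markers found passed the filter of a mean of 0.5 FPKM. LCK averaged 0.33 FPKM and CD8A 0.48 FPKM at 42 days, so both passed through their 126-day values. The median and the counts therefore lean toward markers that were high at 126 days. After quantile normalization 8 were called higher, and without 42-day bird 5 none was called in limma. The 25 T cell markers found, of 31 listed, summed to 15.0 to 48.0 FPKM at 126 days and 5.79 to 13.9 FPKM at 42 days. CD8A, a coreceptor of cytotoxic T cells, averaged 1.37 ± 0.31 FPKM at 126 days and 0.48 ± 0.28 FPKM at 42 days (SD, n = 5 each), and its call was lost in each of the 10 fits. LCK, a kinase of T cell receptor signalling, was called in 2. CD3D of the T cell receptor complex averaged 3.01 ± 0.98 FPKM at 126 days and 1.18 ± 0.65 FPKM at 42 days and was not called (adjusted p = 0.0542, limma). The 15 B cell and plasma cell markers found summed to 138 to 349 FPKM at 126 days and 9.19 to 44.9 FPKM at 42 days. Without IGLL1 and JCHAIN the other 13 summed to 8.01 to 13.3 FPKM at 126 days and 7.66 to 11.9 FPKM at 42 days, so the ages overlapped. Of the 6 B cell markers tested 2 were negative, 1 of them at an unadjusted p under 0.05. None of the 23 macrophage markers tested was called, with a median of 0.94, 5 at an unadjusted p under 0.05, all higher, and sums of 80.2 to 323 FPKM at 126 days and 43.8 to 123 FPKM at 42 days. The 126-day bird 1 had the highest sum of all 3 lists. Without this bird the median of the macrophage markers was 0.57. Without both birds that stood apart it was 0.33, and 6 of the 21 then tested were negative. Of 40 interferon and MHC genes none was called, with 5 higher and 4 lower at an unadjusted p under 0.05. The part of blood or of lymphoid tissue in these samples was not tested.

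Other genes that rose had a range of roles. MICAL2, an enzyme that oxidises actin and takes filaments apart, had 211, 135, 214, 165 and 156 FPKM at 126 days, against 22.3, 49.6, 32.3, 34.3 and 48.7 FPKM at 42 days. The lowest older bird stood far above the highest younger bird (log2 fold change 2.27 ± 0.23, adjusted p = 0.0023, limma, called in all 10 fits). NETO2, an auxiliary subunit of glutamate receptors in neurons, averaged 4.94 ± 2.57 FPKM at 126 days and 0.44 ± 0.20 FPKM at 42 days (SD, n = 5 each) and was also called in all 10 fits. METTL21C, a protein methyltransferase of muscle, averaged 10.8 ± 3.35 FPKM at 126 days and 2.11 ± 1.93 FPKM at 42 days and was called in 2 of the 10 fits. IBSP, the bone sialoprotein, and ISM1, a secreted protein named isthmin, rose in 1 and 3 of the 10 fits.

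A further 4 genes that rose in all 10 fits were chosen after their values were seen. DDX3X, an RNA helicase, had 930, 1045, 1548, 956 and 997 FPKM at 126 days, against 297, 250, 295, 394 and 555 FPKM at 42 days (log2 fold change 1.65 ± 0.24, adjusted p = 0.00601, limma). BCL6, a transcriptional repressor, averaged 19.7 ± 5.20 FPKM at 126 days and 5.53 ± 1.30 FPKM at 42 days (SD, n = 5 each). MAPK4, an atypical MAP kinase, averaged 242 ± 54.9 FPKM at 126 days and 98.3 ± 10.5 FPKM at 42 days, and GRAMD4 averaged 64.6 ± 12.2 FPKM at 126 days and 26.8 ± 7.08 FPKM at 42 days. None of these genes overlapped between the ages.

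Among other genes that fell was PENK, the precursor of the enkephalins. PENK had 0.88, 0.15, 0.20, 0.07 and 0.46 FPKM at 126 days, against 6.78, 3.97, 6.78, 3.18 and 2.02 FPKM at 42 days (log2 fold change −3.51 ± 0.49, adjusted p = 0.00567, limma). The ages did not overlap, and the gene was called in all 10 fits. METTL7A, a methyltransferase of lipid droplets and endoplasmic reticulum, had 3.22, 1.6, 2.33, 3.8 and 1.5 FPKM at 126 days, against 22.0, 18.4, 8.14, 21.1 and 86.4 FPKM at 42 days, with 42-day bird 5 the highest. CA3B, named as a copy of carbonic anhydrase 3, averaged 0.08 ± 0.10 FPKM at 126 days and 1.73 ± 0.85 FPKM at 42 days (SD, n = 5 each). Its reads may be divided with CA3A, which was not called (adjusted p = 0.601, limma). PENK and CA3B passed the filter of a mean of 0.5 FPKM only through the 42-day birds.

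PLEKHN1 averaged 0.496 ± 0.378 FPKM at 126 days and 4.59 ± 2.16 FPKM at 42 days (SD, n = 5 each). CLRN1, the clarin gene that is mutated in human Usher syndrome, averaged 0.21 ± 0.12 FPKM at 126 days and 1.76 ± 0.70 FPKM at 42 days. Both were called in all 10 fits. STUM, named after a fly gene of mechanical sensing, averaged 1.42 ± 0.98 FPKM at 126 days and 9.26 ± 2.92 FPKM at 42 days and was called in 4 of the 10 fits. KCNH6, a voltage-gated potassium channel of the ERG family, fell to 0.09 ± 0.11 FPKM at 126 days, against 1.21 ± 0.71 FPKM at 42 days. PLEKHN1, CLRN1 and KCNH6 passed the filter of a mean of 0.5 FPKM only through the 42-day birds. KLF4 was the only called gene of 49 immediate-early genes (2.04%, against 2.46% of all tested genes). KLF4 was lower in the complete set and in 3 of the 10 fits.

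The 180-day-old birds are given as values only. For the genes of the younger birds, PENK had at most 0.24 FPKM and TMEM8C was listed at 0 in all 5 birds of 180 days, CHRNA1 had 0.93 to 1.94 FPKM and SYNC 1.46 to 7.05 FPKM. Not all genes that fell stayed as low. PPM1K averaged 15.6 ± 6.05 FPKM at 180 days and 3.14 ± 1.32 FPKM at 126 days (SD, n = 5 each). PARVB averaged 18.5 ± 8.94 and 6.39 ± 2.12 FPKM at these ages, and PSMD1 123 ± 23.5 and 61.6 ± 14.7 FPKM. For the genes that were higher at 126 days, MICAL2 had 22.6 to 51.2 FPKM at 180 days, THBS1 had 2.87 to 8.06 FPKM, ISM1 0.39 to 0.88 FPKM and BCL6 8.56 to 28.0 FPKM. The summed IGLL1 entries had 5.06 to 31.9 FPKM in 4 birds of 180 days and 2571 FPKM in 1 bird.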

How the data were processed

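RNA from breast muscle of 15 hens was sequenced, and the 10 birds of 126 and 42 days were compared here. The deposited table held FPKM made by the authors. Per the labels' processing notes HISAT2 2.2.1 and StringTie 2.1.6 were used, and the genome build was not given in the sources used here. The table has no counts, so the count test of the study could not be used and no interval for depth is given. The 48836 entries were summed by gene name to 23599 names, of which 11499 had several entries. Genes with a mean FPKM of at least 0.5 over the 10 birds were tested on log2(FPKM + 0.1) with limma 3.58.1 in R 4.3.3 (two-sided, intensity trend, Benjamini-Hochberg adjustment). Genes low at 1 age could pass this filter through the other age alone. Among those described, TMEM8C, NRG1, KIF23, COL20A1, PENK, PLEKHN1, CLRN1, CA3B and KCNH6 did so through 42 days. IL7, CCL21, NETO2, IBSP, LCK, CD8A and S100A12 did so through 126 days. Fold changes on this scale understate the change of low genes. On simulated data for this comparison, 81% of 200 genes changed by 2 on the log2 scale were recovered among 11482, with 7 other calls. Recovery in data with birds that stand apart, or with a shift of all genes, was not tested.

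Nothing in the labels says how the birds were housed or prepared in batches. The p-values set the difference between the ages against the spread between these birds within an age. The named genes were 12 rises and 12 falls, the largest among called genes with a symbol and no overlap, up to 6 called members per list and direction, and up to 4 abundant uncalled members per list. ALB, OGN, TRIM63, FAM181A, UBB, DDX3X, BCL6, MAPK4, GRAMD4, MYOG, PAX7, MSTN, COL1A1, COL3A1, CRY1, TEF, CD3D and CA3A were chosen after their values were seen. The members and lists were chosen with earlier results of these data known. Alternatives were other pseudocounts, filters, scalings, variance settings, entries per name and samples, and each bird left out in turn. Tables and plots were made in Python 3.11.15 with pandas 2.3.3, numpy 2.4.6 and matplotlib 3.10.9.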

Additional observations from a re-analysis of the deposited data

Results flagged for a closer look

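In 230 sets of 5 birds of an age, 32 (13.9%) held a bird that lay far from the other 4 by Dixon's test at the 95% level. Chance gives about 1 in 20 for independent sets of normal values. These sets are untransformed FPKM of the same birds. Some of the genes, OGN, ALB, TRIM63, FAM181A and UBB among them, were chosen after their values were seen. The share therefore cannot be set against 1 in 20. Of the 32 flags, 9 were 126-day bird 1 and 10 were 42-day bird 5.

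The 126-day bird 1 had 210.49 FPKM of OGN, 70.3 FPKM of ALB, 476.84 FPKM of COL3A1, 28.66 FPKM of BCL6, 9.56 FPKM of COL28A1, 3.0 FPKM of KCNN1, 1.2 FPKM of SARDH and 0.96 FPKM of CAMK2B, all above the other 126-day birds. It was the bird in which CLRN1 was listed at 0.0 FPKM, below them. The 42-day bird 5 had 4096.84 FPKM of UBB, 1871.65 FPKM of TRIM63, 325.74 FPKM of ASB2, 87.96 FPKM of FAM181A, 86.43 FPKM of METTL7A, 70.23 FPKM of TEAD4, 49.72 FPKM of NFIL3, 49.3 FPKM of RAPSN, 35.48 FPKM of CDH15 and 11.07 FPKM of ARNTL, all above the other 42-day birds.

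The other values came from 6 birds. The 126-day bird 3 had 1548.27 FPKM of DDX3X and was the only older bird with any TMEM8C (0.04 FPKM). The 126-day bird 4 had 1.43 FPKM of CHRNA1, and 126-day bird 5 had 22.84 FPKM of CA3A, 4.1 FPKM of INSIG1 and 1.16 FPKM of PLEKHN1. The 42-day bird 1 had 0.66 FPKM of IL7, 42-day bird 2 had 25.12 FPKM of IGLL1 and 5.53 FPKM of COL4A6, and 42-day bird 3 had 4.79 FPKM of TNC, 6.42 FPKM of ALB and, below the others of its age, 2.67 FPKM of KCNN1 and 23.0 FPKM of GHR.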

How the results depend on the processing

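The 283 calls (63 higher, 220 lower) became 186 with a pseudocount of 1 (45 higher, 141 lower), 169 without the filter (36 higher, 133 lower) and 52 with the highest entry of each gene name (11 higher, 41 lower). Quantile normalization gave 268 (116 higher, 152 lower). With 1 bird left out the total ran between 77 and 375, the higher calls between 18 and 81 and the lower calls between 59 and 296. Without both birds that stood apart, an alternative chosen after seeing the data, 538 genes were called (129 higher, 409 lower), 233 of them among the 283. The cause of these shifts was not tested. The replicate number as a block gave 264 calls (80 higher, 184 lower). The correlations of same-numbered birds, on deviations from the age means, were 0.16, −0.12, 0.14, 0.11 and −0.13. They were not set against birds of different numbers, so whether the numbers pair the birds was not tested. The summed FPKM fell with each number from bird 1 to bird 5, from 469268 to 413638 at 42 days. At 126 days it fell likewise, from 478434 to 445023. With the highest entry alone 22 of the 92 called genes described that could be tested kept the call. Of all 96, 20 kept direction and call under all 21 alternatives. Direction turned for 3, each with the highest entry alone: ACACA (3.20, adjusted p = 0.165, limma), ARNTL (−0.37, adjusted p = 0.92) and NR1D2 (0.06, adjusted p = 0.987). Leaving aside MYOD1, MEF2A, MEF2C, ATP1B1 and PNPLA2, 19 genes described were not called, and of these MSTN, ALB and OGN changed sign. With 1 bird left out their log2 fold changes ran between −0.89 and 0.17 (MSTN), −1.31 and 1.05 (ALB) and −0.73 and 0.15 (OGN). ALB had −0.12 with FPKM rescaled to a common sum and −1.82 without both birds, and OGN had 0.05 after quantile normalization. The unknown depth limits the genes under 1 FPKM most.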
